A study of Mus musculus with 6 samples.

Results

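The genes described here encode 9 RNA-binding proteins of mRNA transport granules: Fmr1, Fxr1, Igf2bp2, Igf2bp3, Purb, Pum2, Cpeb2, Cpeb4 and Caprin1. They were listed by name and not by a cut on a measured value, but with earlier results of these data known. Of 19938 genes in the table, 8 of these 9 were measured, and Igf2bp2 is not analysed here because no probe set with a single gene symbol was listed for it. RNA came from an immortalized mouse podocyte line, grown with interferon gamma at a permissive temperature and then differentiated at a non-permissive one without it. The podocyte is the epithelial cell whose foot processes wrap the capillaries of the kidney glomerulus. The 6 arrays comprised 3 of total input RNA (input) and 3 of RNA that an antibody against Staufen2 brought down from cytoplasmic extract (stau2), and both groups came from the same untreated line. A single line in culture stands for the podocyte here, and no precipitation with a control antibody was analysed, so a higher value means a larger share of the recovered RNA than of the input RNA, whether or not Staufen2 bound it.

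mRNA transport granules are particles of mRNA, RNA-binding proteins and ribosomal parts that motor proteins carry along microtubules while translation is held back. They were described mostly in neurons, where the fragile X proteins, the zipcode-binding proteins, the Pur proteins, Pumilio, the cytoplasmic polyadenylation element-binding (CPEB) proteins and caprin occur in them, in part together with Staufen. These proteins bind mRNAs, and the values below concern their own mRNAs, so they say nothing of the proteins or of the mRNAs that the proteins bind.

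All values are log2 expression values of 1 probe set per gene, and differences are pulldown minus input on that scale. A gene was called higher or lower at a Benjamini-Hochberg adjusted p under 0.05 over all genes in limma's moderated test. Array medians lay between 6.53 and 6.54, and correlations over all probe sets were at least 0.998 within a group and at most 0.983 between groups. Separate cultures are not named in the labels, and the p-values then rest on a spread between samples that may be technical. Levels of different probe sets are not comparable, and only the difference between groups is compared from gene to gene. Of the podocyte markers measured, Wt1 (9.57), Synpo (8.29), Cd2ap (11.98), Actn4 (13.09) and Kirrel (11.34) stood in the input above the median of all probe sets (6.54), called the median level from here on, whereas the defining slit diaphragm gene Nphs1 (6.30) and Podxl (6.04) stood below it.

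The mRNAs of all 8 measured genes made up a larger part of the Staufen2 pulldown than of the input. Their log2 differences ran from 0.24 for Caprin1 to 0.72 for Purb, with a median of 0.37, against a median of 0.04 over all genes. All 8 were called higher and 0 lower by limma, in an experiment in which 31.3% of all genes were called higher and 17.3% lower. Among the 12156 genes above the median level in either group, to which all 8 belong, the shares were 45.9% and 26.8%. The members were chosen with earlier results of these data known, so the shares describe the list and do not test it. After cyclic loess normalization, another scaling of the arrays, the 8 were still called higher, as were 25.7% of all genes. In all 8 the 3 pulldown arrays lay above the 3 input arrays, as they did in 36.4% of all genes and in 5950 of the 12156 above the median level. The differences were moderate in size. None of the 8 reached a 2-fold difference, and they fell between the 77.9th and the 94.6th percentile of all genes.

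**Figure D1:**
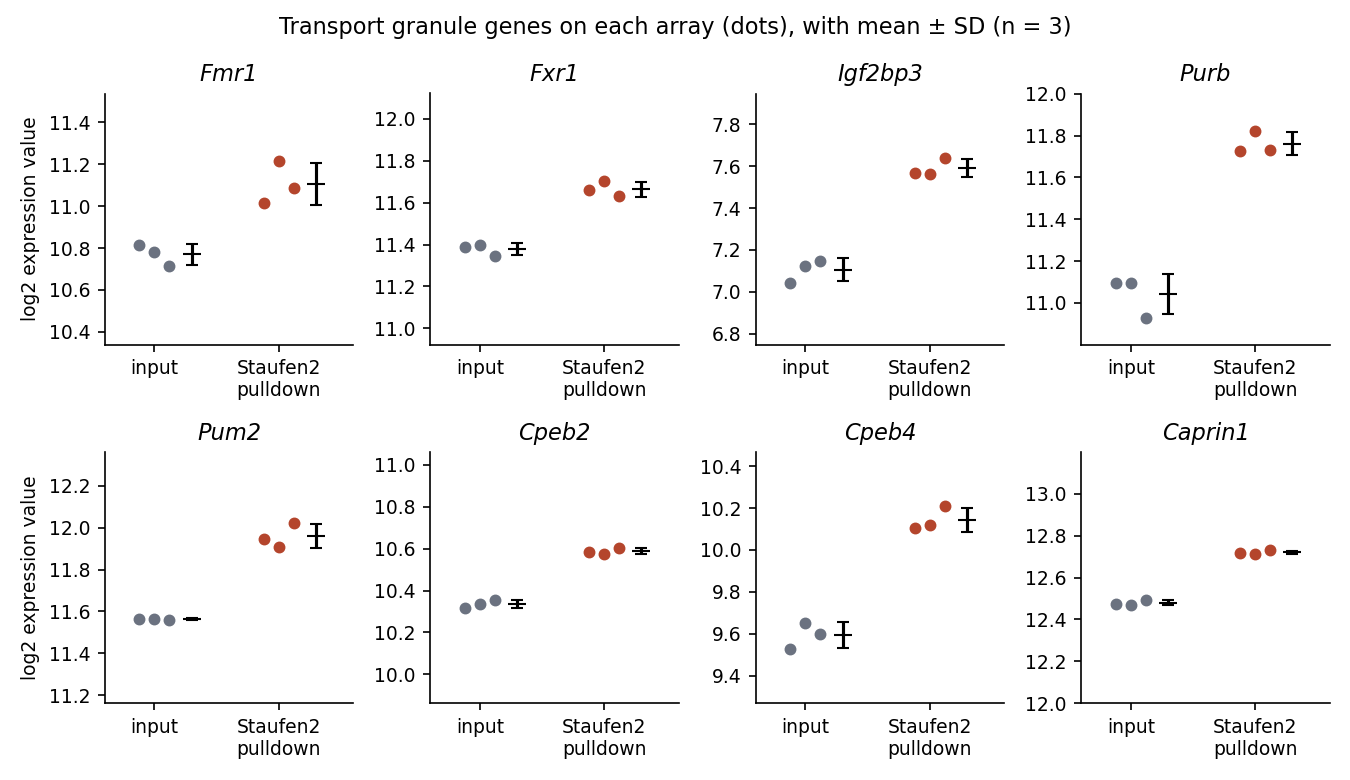
Log2 expression value (vertical axis) of the 8 measured genes on the 3 input arrays (grey) and the 3 Staufen2 pulldown arrays (red), with the mean and SD of each group in black (n = 3). The vertical axes start at different values but span the same range, so the step between groups can be compared across panels; it is widest for Purb (0.72) and narrowest for Caprin1 (0.24).

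The fragile X proteins are polyribosome-associated repressors of translation that share KH domains, and loss of Fmr1 in humans causes fragile X syndrome. Fmr1 stood at 10.81, 10.78 and 10.72 on the input arrays and at 11.02, 11.22 and 11.09 on the pulldown arrays. Its log2 difference was 0.34 ± 0.055 (SE, n = 3 per group), or 1.26-fold, with a 95% interval of 0.21 to 0.46 (limma adjusted p = 0.0013). The pulldown values were spread over 0.20 log2 units, wider than in any other of the 8 genes, yet the lowest of them was still above the highest input value.

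Fxr1, an autosomal paralog of Fmr1, stood at 11.39, 11.40 and 11.34 in the input and at 11.66, 11.70 and 11.63 in the pulldown. The groups did not overlap, and the difference was 0.29 ± 0.032 (SE), or 1.22-fold (limma adjusted p = 0.00015). After cyclic loess it was 0.19 and still called. The third member of the family, Fxr2, had the largest change of the 3, from 10.59 ± 0.037 to 11.22 ± 0.025 (mean ± SD, n = 3), a difference of 0.62 ± 0.031 (SE).

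The zipcode-binding proteins bind localization elements, such as that of the beta-actin mRNA, and keep such mRNAs untranslated on their way to the cell's edge. Igf2bp3 stood at 7.04, 7.12 and 7.15 in the input and at 7.57, 7.56 and 7.64 in the pulldown. This gave a difference of 0.49 ± 0.039 (SE), or 1.40-fold (limma adjusted p = 2.3e-05), with no overlap of the groups. Its input values lay near the median level, where part of the signal can be background, so the size of the difference is uncertain. Igf2bp1, the zipcode-binding protein first described, also lay near it, at 6.69 ± 0.12 (SD) in the input and 7.49 ± 0.086 in the pulldown, a difference of 0.81 ± 0.067 (SE). A second probe set of Igf2bp1 stood at 4.94 and 4.97, well below the median level. In a limma fit over all probe sets it did not pass (0.03 ± 0.035, limma adjusted p = 0.52).

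Purb encodes a single-stranded nucleic acid-binding protein that acts in transcription and is also found in RNA granules carried by kinesin. It had the largest difference of the 8. The input arrays gave 11.10, 11.10 and 10.93, and the pulldown arrays gave 11.73, 11.82 and 11.73. The difference was 0.72 ± 0.054 (SE), or 1.65-fold, with a 95% interval of 0.59 to 0.85 (limma adjusted p = 1.6e-05). The third input array was the low one, and without it the difference was 0.67. A second probe set for Purb was higher as well, from 10.08 to 10.52, by a smaller 0.44 ± 0.041 (SE), so the direction was shared by both and the size was not.

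The other Pur genes differed in size of change. Purg, the least studied of the 3, went from 9.46 ± 0.063 (SD) to 10.27 ± 0.032, a difference of 0.81 ± 0.039 (SE). Pura, a neuronal granule protein whose loss impairs brain development, went from 11.68 ± 0.026 (SD) to 11.87 ± 0.064. Its difference of 0.19 ± 0.039 (SE) was called (limma adjusted p = 0.0045), but not after cyclic loess (0.09, adjusted p = 0.10).

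Pum2 is a Pumilio protein, a sequence-specific repressor that recruits deadenylases to mRNAs. Its input values of 11.56, 11.57 and 11.56 were nearly identical, and the pulldown values were 11.95, 11.91 and 12.02. The pulldown arrays were all higher, by 0.40 ± 0.035 (SE) on average, or 1.32-fold (limma adjusted p = 4.3e-05).

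CPEB proteins bind a U-rich element near the mRNA end and control poly(A) tail length and translation. Cpeb2 stood at 10.32, 10.33 and 10.35 in the input and at 10.59, 10.58 and 10.60 in the pulldown. The replicates of each group lay within 0.04 of each other and the groups were apart by 0.25 ± 0.027 (SE), or 1.19-fold (limma adjusted p = 0.00011). Cyclic loess reduced this to 0.14, with the call kept.

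Cpeb4, a close relative of Cpeb2, stood at 9.53, 9.65 and 9.60 in the input and at 10.10, 10.12 and 10.21 in the pulldown. The groups were again apart, by 0.55 ± 0.044 (SE), or 1.47-fold (limma adjusted p = 2.2e-05). Of the unlisted CPEB genes, Cpeb3 was higher by 0.36 ± 0.054 (SE), from 6.83 in the input, close to the median level. Cpeb1, the founding member, stood at 7.15 ± 0.040 (SD) in the input and 7.21 ± 0.046 in the pulldown and did not pass (0.05 ± 0.036, limma adjusted p = 0.27). It was the 1 gene among the 15 measured members and paralogs that did not pass, and with values near the median level little can be read from it.

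Caprin1 binds G3BP proteins and mRNAs in stress granules and neuronal RNA granules. Its values were 12.48, 12.47 and 12.49 in the input and 12.72, 12.71 and 12.73 in the pulldown. With an SD of 0.012 in the input and 0.0089 in the pulldown, the narrowest difference of the 8 (0.24 ± 0.026, SE, or 1.18-fold) was far outside the replicate spread (limma adjusted p = 0.00012). It was 0.15 after cyclic loess, with the call kept. Caprin2 was higher by 0.37 ± 0.042 (SE), from 8.27 to 8.65.

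In order of the difference, Purb came first, followed by Cpeb4, Igf2bp3, Pum2, Fmr1, Fxr1, Cpeb2 and Caprin1. In all 7 pairs of neighbours in this order the 95% intervals overlapped. Overlap of separate intervals is not a test of a difference, and of these pairs only Fmr1 and Fxr1 were tested below. The order should therefore not be read step by step. When the test asked for a change of more than 1.2-fold in place of any change (limma's treat), 4 of the 8 were called higher. These were Purb, Cpeb4, Igf2bp3 and Pum2. Of all genes 15.2% were called higher by it, and the share among genes above the median level was not computed. Fmr1, Fxr1, Cpeb2 and Caprin1 did not pass that stricter test.

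**Figure D2:**
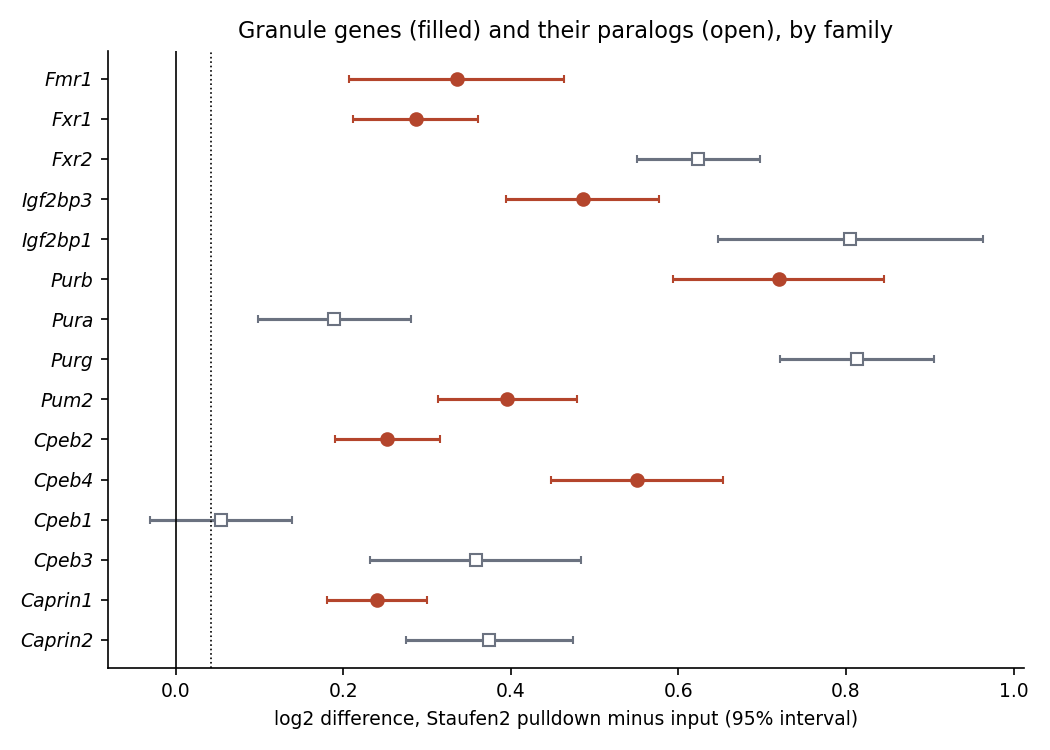
Log2 difference between Staufen2 pulldown and input (horizontal axis) with 95% intervals from limma, for the 8 genes (filled circles) and 7 measured paralogs (open squares), grouped by family. The solid line marks 0 and the dotted line the median of all genes (0.04); Pura (0.19) and Cpeb1 (0.05) lie left of the other members of their families.

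Whether paralogs shifted by different amounts was tested on the difference between the genes' values on each array, with an exact 2-sided permutation test of 3 against 3 arrays, in which p cannot fall below 0.10. Of 5 pairs planned, 3 could be computed, and 7 more were added after the values had been seen. P-values were adjusted over these 10. None could pass 0.05. Cpeb4 shifted more than Cpeb2 by 0.30 (Cpeb2 minus Cpeb4: -0.30 ± 0.040, SE), and the arrays of the 2 groups did not overlap in this measure (exact permutation p = 0.10, adjusted 0.14). Purb shifted more than Pura by 0.53 ± 0.069 (exact permutation p = 0.10, adjusted 0.14), again without overlap. Fmr1 and Fxr1 shifted by amounts that differed by 0.05 ± 0.050, within the replicate spread (exact permutation p = 0.40). Among the added pairs, Fxr1 minus Fxr2 (-0.34 ± 0.046), Fmr1 minus Fxr2 (-0.29 ± 0.085) and Caprin1 minus Caprin2 (-0.13 ± 0.039) were also without overlap. So were Igf2bp3 minus Igf2bp1 (-0.32) and Cpeb2 minus Cpeb3 (-0.11). The first of these turned to 0.07 when all probe sets of a gene were averaged, which takes in the dim second probe set of Igf2bp1. Purb minus Purg (-0.09 ± 0.093) and Cpeb4 minus Cpeb3 (0.19 ± 0.097) overlapped. With averaged probe sets Purb minus Purg was -0.23 (exact permutation p = 0.10), and with cyclic loess Cpeb4 minus Cpeb3 was 0.13 and Cpeb2 minus Cpeb3 -0.17.

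The length of DNA a gene spans, introns included, moved with the difference throughout this experiment, and the spans of the 8 genes are therefore given beside their values. Span gives only a rough idea of how long an RNA is, and no transcript lengths were used here. The comparison was made among protein-coding genes above the median level in either group, in classes chosen after the data were seen. Fmr1 (39.4 kb), Fxr1 (49.9 kb) and Caprin1 (34.7 kb) belong to the class of 30 to 50 kb, in which 58.5% of 1666 genes were called higher and the median difference was 0.20. Pum2, Cpeb2 and Cpeb4 belong to the class of 50 to 100 kb, in which 70.1% of 1697 genes were higher, with a median of 0.33. For Igf2bp3, at 130.3 kb, the figures of its class (over 100 kb) were 74.9% of 1548 genes and 0.42.

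Seen against genes of like span, most of the 8 were near the middle. Cpeb2 lay above 41.7% of its class, Caprin1 above 54.4%, Igf2bp3 above 55.4%, Pum2 above 55.7%, Fxr1 above 59.2%, Fmr1 above 63.2% and Cpeb4 above 68.8%. Purb was unlike them. It spans 8.5 kb, and in its class of 3 to 10 kb only 21.7% of 2246 genes were called higher, with a median difference of -0.09, while Purb at 0.72 lay above 98.3% of them. Its second probe set, at 0.44, was also above the upper quartile of that class (0.09). These are descriptions without a test, and the part of span in the differences was not tested.

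**Figure D3:**
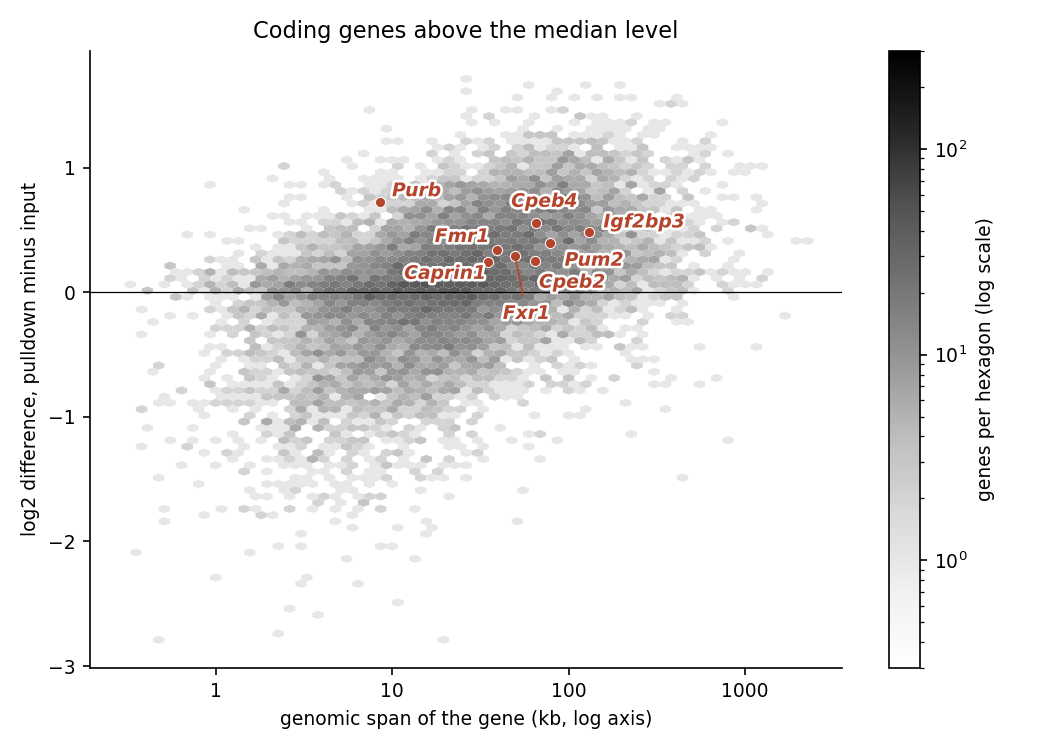
Log2 difference between pulldown and input (vertical axis) against genomic span in kb (log axis) for protein-coding genes above the median level in either group, with darker hexagons holding more genes, and the 8 granule genes in red. Of the red points, 7 lie within the main cloud of genes of like span, and Purb, at 8.5 kb and 0.72, lies at its upper edge.

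Genes that work with these proteins were taken by lists, which were drawn up with earlier results of these data known and are described by counts alone, to be read against the 31.3% of all genes, and 45.9% of those above the median level, that were called higher. Among FMRP partners 4 of 7 measured were higher, 1 was lower and 2 did not pass (median 0.15), and after cyclic loess 3 were higher and 2 lower. Cyfip2, which binds FMRP and is part of the WAVE complex, was higher by 0.62 ± 0.031 (SE), from 9.28 to 9.90. The FMRP-interacting proteins Nufip2 and Nufip1 went opposite ways, Nufip2 at 0.75 ± 0.048 and Nufip1 at -0.48 ± 0.034 (limma adjusted p = 6.9e-06 and 1.1e-05).

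Stress granule proteins that act with caprin, all above the median level, were higher in 10 of 10 measured cases (median 0.29), and in 8 of 10 after cyclic loess and after centring on bright probe sets. The G3BP protein G3bp2 was higher by 0.55 ± 0.028 (SE), its partner Usp10, a deubiquitinase, by 0.68 ± 0.038 and ataxin-2, Atxn2, by 0.64 ± 0.047. In all 10 the pulldown arrays lay above all input arrays, against 36.4% of all genes and 5950 of the 12156 above the median level.

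Other RNA-binding proteins of mRNA localization went both ways (median 0.19): the calls were 11 higher and 3 lower among 19, and 9 and 5 after cyclic loess. Qk, a STAR-family protein that acts in splicing and mRNA localization, was higher by 0.62 ± 0.029 (SE), although a second probe set of it was lower, at -0.21 ± 0.033, and averaging its 3 probe sets gave 0.13. Zc3h14, a poly(A)-binding zinc finger protein, was higher by 0.40 ± 0.032. Ybx1, the main packaging protein of untranslated mRNA, was lower at -0.67 ± 0.025 (limma adjusted p = 6.9e-07), and its second probe set at -0.79 ± 0.039. The other 2 lower genes, named after their values were seen, were its paralog Ybx3 (-0.44) and Tardbp (-0.42).

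Effectors of CPEB and Pumilio proteins were higher in 5 of 14 cases, lower in 1 and not past the test in 8 (median 0.05, and -0.04 after cyclic loess). Nanos1, the partner of Pumilio in repression, was higher by 0.61 ± 0.031 (SE). Eif4enif1, which binds the cap-binding factor eIF4E, was higher by 0.54 ± 0.036, and its second probe set by 0.23 ± 0.034. The scaffold Sympk, which CPEB uses in polyadenylation, was higher by 0.42 ± 0.045. Of Sympk 2 further probe sets, at 6.13 in both groups and so below the median level, did not pass (0.0055 each). These 2 had identical values on every array, so the average over all 3, which was 0.14, counts the same values 2 times. Of motors and adaptors that carry granules, 8 of 9 were higher and none lower (median 0.55). The counts were the same after cyclic loess, with a median of 0.435. Those with the smallest adjusted p were Myo5a, an actin-based motor, at 1.19 ± 0.031 (SE), the dynein adaptor Bicd2 at 1.10 ± 0.029 and the dynein heavy chain Dync1h1 at 0.84 ± 0.033. Of 2 genes named after their values were seen, the kinesin heavy chain Kif5c was higher by 1.09 and Dynll1, a small dynein light chain, did not pass (0.04). Kif5c stood at 7.10 in the input, near the median level, so the size of its difference is uncertain. The 8 called motors and adaptors span 40520 to 155493 bases, and Dynll1 spans 3881. In the span classes over 30 kb given above, 58.5% to 74.9% of genes were called higher, and in that of 3 to 10 kb 21.7%. The part of span in these calls was not tested.

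**Figure D4:**
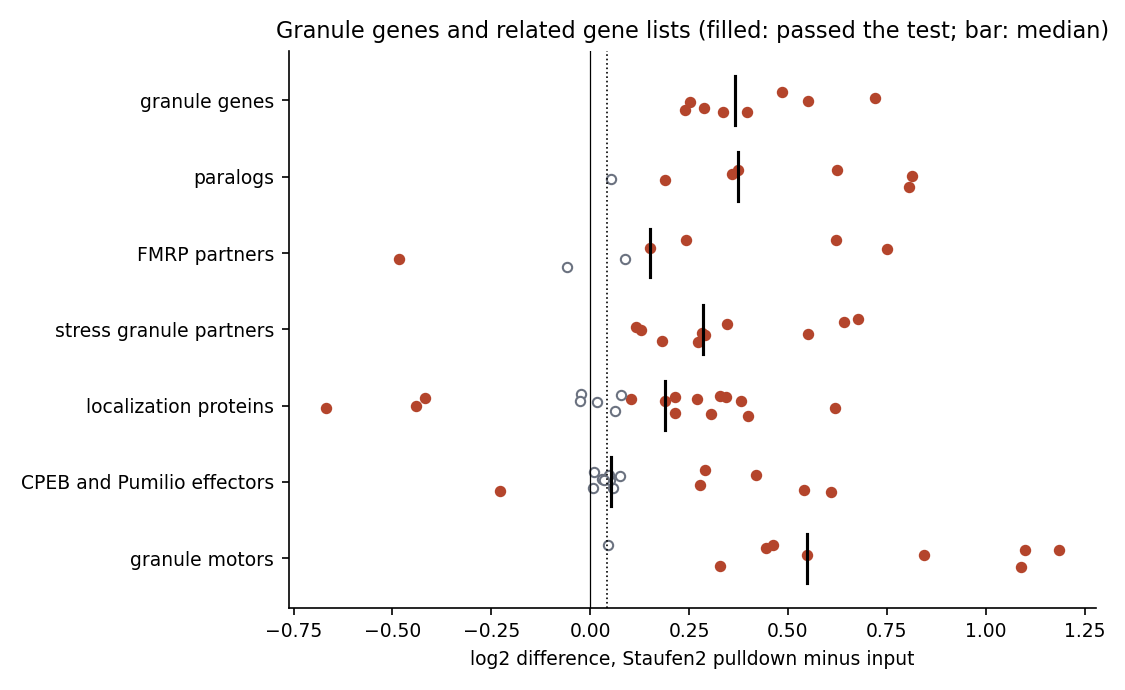
Log2 difference between pulldown and input (horizontal axis) of each gene in the 7 lists, with filled dots for genes past the test, open dots for the rest and a bar at each list's median. The 8 granule genes lie between 0.24 and 0.72; the motors reach further right (1.19) and the localization proteins further left (-0.67).

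Genes whose values on the 6 arrays, each minus the gene's input mean, ran closest to those of the extremes of the 8 were also looked up. For Purb they were Tasor (root mean square distance 0.015 log2 units), Msl2 (0.031) and Stag2 (0.033), with differences of 0.71, 0.73 and 0.69. For Caprin1 they were Maea (0.0092), Cpeb2 (0.012) and Glcci1 (0.013), with differences of 0.25, 0.25 and 0.25. With 2 groups of 3 arrays, a gene close by this measure has a step of about the same size between the groups.

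Markers of other cell types were read on the same arrays. Counts called higher are to be read against 31.3% of all genes and 45.9% of those above the median level. The shares called lower were 17.3% and 26.8%. A summed level leans on its brightest probe set, and sums of different cell types are not comparable. All 6 neuronal markers stood below the median level in the input, between 5.27 and 6.29, and their summed level was 8.33 to 8.45 on the input arrays and 8.53 to 8.64 on the pulldown arrays, with 3 of 6 called higher. For 6 mesangial markers the summed level was 14.03 to 14.05 in the input and 14.29 to 14.31 in the pulldown, with 3 called higher. The brightest, Acta2 (13.57 in the input), did not pass (-0.0014), and the largest rise was that of Myh11 (1.44). Pdgfrb (11.45), Myh11 (10.36) and Gata3 (8.84) also stood above the median level in the input. Itga8 (5.21) and Des (6.48) stood below it there. The 7 podocyte markers summed to 14.00 to 14.04 in the input and to 14.25 to 14.27 in the pulldown, with 5 called higher. The brightest of these was Actn4, at 13.09 in the input and higher by 0.19. Endothelial markers were at 10.58 to 10.61 in the input and 10.84 to 10.89 in the pulldown (3 of 6 higher, 1 lower). Of these 6 only Ehd3 stood above the median level, at 10.34 in the input, while defining markers such as Pecam1 (5.62) and Cdh5 (5.74) stood below it. Tubular markers were at 10.07 to 10.11 and 10.24 to 10.32 (3 of 6 higher). Immune markers were at 9.17 to 9.25 in the input and 8.95 to 9.03 in the pulldown (0 of 6 higher, 2 lower). Their part in the differences above was not tested.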

How the data were processed

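The authors deposited a table of log2 expression values with a column for each array. RMA and limma are named in the submitters' processing notes, and their versions and the genome build are not given in the sources used here. Quantile normalization is commonly a part of RMA, which makes each difference relative to the rest of the RNA, and per the labels equal amounts of RNA were labelled. Of 35556 probe sets, 21789 had 1 gene symbol in the platform annotation and 1621 had several, which were not named. The brightest such probe set over 6 arrays was taken for each of 19938 genes, symbols being updated through Entrez identifiers (19856 matched the reference gene table, GRCm38.p6, which also gave the spans). Coordinates are left out because no build is named for the arrays.

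Differences came from limma 3.58.1 in R 4.3.3 (2-sided, no covariates, Benjamini-Hochberg over all genes), tested on simulated data beforehand. SEs of limma differences are moderated. Those of paralog pairs are not moderated and come from the spread of the pair's values within each group. Differences of second and further probe sets of a gene came from a separate limma fit over all 35556 probe sets, adjusted over these. Paralog pairs used the exact permutation test of scipy 1.17.1, and figures matplotlib 3.10.9. Genes named were the members, their paralogs, the 3 members of each further list with the smallest adjusted p, and the 3 nearest in pattern to the most and least changed member. Cell type markers, and genes said to be named after their values were seen, stand outside this rule. Members and lists were chosen with earlier results of these data known. Arrays have no read depth, and their number limits the precision. The alternatives were a replicate block, a variance trend, 2 other scalings, leaving out dim genes, array weights, averaged probe sets, treat at 1.2-fold, an unmoderated statistic and the omission of each array.

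Same-numbered input and pulldown arrays did not deviate together (correlations of their deviations 0.024, 0.111 and -0.06), so replicate numbers were taken as names.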

Additional observations from a re-analysis of the deposited data

How the results depend on the processing

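The 8 genes kept their direction under all 15 alternatives, and their calls under all but treat at 1.2-fold. Under treat 4 genes remained called, with adjusted p of 0.39 for Fmr1 (0.34), 0.79 for Fxr1 (0.29) and 1 each for Cpeb2 (0.25) and Caprin1 (0.24), and over all genes 3034 were higher and 1822 lower in place of 6246 and 3459. Under the other alternatives adjusted p-values of the 8 reached at most 0.019 (Fmr1). Leaving out single arrays gave 0.28 to 0.38 for Fmr1 and 0.67 to 0.75 for Purb. With the replicate number as a block, 6247 genes were higher and 3467 lower, all 8 granule genes were called, and no call named here was lost; 2 of the 3 input arrays did not correlate best with their own number. Cyclic loess left 5127 genes higher and 4565 lower (64.4% and 52.9% higher calls before and after), and centring on bright probe sets 5398 and 4227. The shift of Igf2bp3 minus that of Igf2bp1 turned from -0.32 to 0.068 with averaged probe sets. The pair of Igf2bp2 with Igf2bp3 was not computed, since Igf2bp2 is not analysed here. Signal near the median level (the median of all probe sets) limits what can be read for Igf2bp3, Igf2bp1, Cpeb1, Cpeb3 and Kif5c.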
